A study of Mus musculus with 7 samples.

Results

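Collagen chain genes were followed in RNA sequencing of isolated mouse pancreatic islets. They were taken as every row of the deposited gene count table whose symbol has the form of a collagen alpha chain, that is Col, a type number, a and a chain number, and 44 of 55487 rows met this. The 44 genes are all protein-coding and fall into 11 fibrillar chains, 6 chains of type IV collagen and 27 other chains. The 27 are 9 FACIT chains (fibril-associated collagens with interrupted helices), 6 type VI chains, 4 transmembrane chains, 3 short-chain network formers, 2 multiplexins, the type VII chain, and Col26a1 and Col28a1.

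The samples were 3 libraries labelled Traf6 KO and 4 labelled Control, all from islets of mice held on a 60% high-fat diet for 15 weeks, with 24 h of recovery in medium after isolation. The series describes the knockout as confined to beta cells. The driver of the deletion, the strain, the age and the sex of the mice are not stated by the labels. Traf6 encodes a ubiquitin ligase that relays signals of Toll-like and interleukin-1 receptors, and controls carry no stated treatment other than the diet they share with the knockouts. Nothing in the labels says which libraries came from separate mice, although each title carries its own code (a letter and a number that the labels do not explain), so p-values measure the spread between these samples only.

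Collagens are the main structural proteins of the extracellular matrix, and each molecule is built of chains that wind around each other into a rope-like helix. Fibrillar collagens (types I, II, III, V, XI, XXIV and XXVII) pack into fibrils. Those of interstitial tissue, such as types I and III, form cross-striated fibrils and are made mostly by fibroblasts and stellate cells. Type IV collagen forms the sheet-like network of basement membranes. In islets the basement membrane lies along the capillaries, and beta cells themselves make little of it, relying on endothelial cells. FACIT, type VI and multiplexin collagens decorate or connect these structures, and transmembrane collagens sit in the cell surface.

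Library totals ran from 22104256 to 25091055 counts in Traf6 KO and from 22161097 to 29917292 counts in control, and collagen genes took 0.0357% to 0.0812% of them in Traf6 KO and 0.0511% to 0.0564% in control. The exact (Clopper-Pearson) 95% binomial intervals of the lowest and the highest share were 0.035% to 0.0364% in Traf6 KO 2 and 0.08% to 0.0823% in Traf6 KO 3, and cover counting error only. Levels are given as CPM, counts per 1000000 of the library total after scaling by its TMM factor (0.5001, 0.74 and 1.351 in Traf6 KO 1 to 3, 0.9545, 1.305 and 1.256 for controls 1 to 3, 1.278 for the library labelled control 4). Traf6 itself was at 14.8, 15.3 and 14.5 CPM in Traf6 KO 1 to 3, 17.9, 25.5 and 22.1 CPM for controls 1 to 3 and 12.6 CPM for the library labelled control 4. Its level in the library labelled control 4 was below every Traf6 KO library, so this gene goes against that label, and the count covers the whole gene rather than a deleted part. The log2 fold change of Traf6 was -0.40 ± 0.22 (adjusted p = 0.416 by edgeR), where values after ± are SE for log2 fold changes throughout and SD for CPM. Islet hormones were present at high levels in all 7 libraries, with Ins2, an insulin gene, between 65050 and 86610 CPM in Traf6 KO and between 101800 and 124800 CPM in control. Digestive-enzyme and other acinar markers (19 genes, all above 0 counts everywhere) took 44.9%, 35.0% and 1.32% of counts in Traf6 KO 1 to 3, against 16.1%, 0.391% and 0.379% for controls 1 to 3 and 2.68% for the library labelled control 4. Traf6 KO 3 stood apart in another way. Xist, the X-inactivation transcript, was at 421 CPM there and at most 0.388 CPM in the other 6 libraries, and all 4 Y-linked genes examined were at 0 counts only there. The title codes begin with S for Traf6 KO 3 and the library labelled control 4, and with Q or R for the other 5.

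In Traf6 KO against control islets no collagen chain passed the test, and neither did any other gene. The edgeR quasi-likelihood test with Benjamini-Hochberg adjustment called 0 of 16203 genes at an adjusted p under 0.05 (0%), with a smallest adjusted p of 0.1765. Of the 44 collagen genes, 32 had enough counts to be tested, and 21 of them had a fold change above 0 and 11 one below 0. The count above 0 moved with the setting: it was 13 of 32 with library totals and no factor (where the median of all genes was -0.46), 15 with the stellate marker covariate, 17 without Traf6 KO 3 and 17 with the Q and R codes alone. Their median log2 fold change was 0.26, where the median of all genes tested was 0.0051. At an unadjusted p under 0.05, which 16% of all genes met (8.81% on the higher side and 7.17% on the lower), 4 collagen chains lay on the higher side (Col5a1, Col5a2, Col6a1 and Col7a1) and 2 on the lower (Col11a2 and Col13a1). Every Traf6 KO library was above every control for 0 of the 32 chains, against 5.58% of all genes, and below every control for 1, Col11a2, against 8.68%. In bulk tissue, fewer cells of a type and less RNA per cell cannot be told apart.

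Most fibrillar chains had fold changes above 0, and the other classes were more mixed. Of 8 fibrillar chains tested, 7 were above 0, with a median log2 fold change of 1.19. Of 5 type IV chains, 3 were above 0, with a median of 0.24. Of the 19 other chains, 11 were above 0, with a median of 0.096. Within these 19 the count above 0 was 4 of 5 for type VI, 2 of 2 for multiplexins, 2 of 2 for short-chain network formers, 1 of 5 for FACIT chains and 0 of 2 for transmembrane chains. The fibrillar median was 0.33 without Traf6 KO 1 and 1.06 without the library labelled control 4. Among the libraries with Q and R codes alone the medians were 1.18 for fibrillar, 0.0067 for type IV and -0.16 for other chains, and no test was possible within the S code, with its 1 library per genotype.

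**Figure D1:**
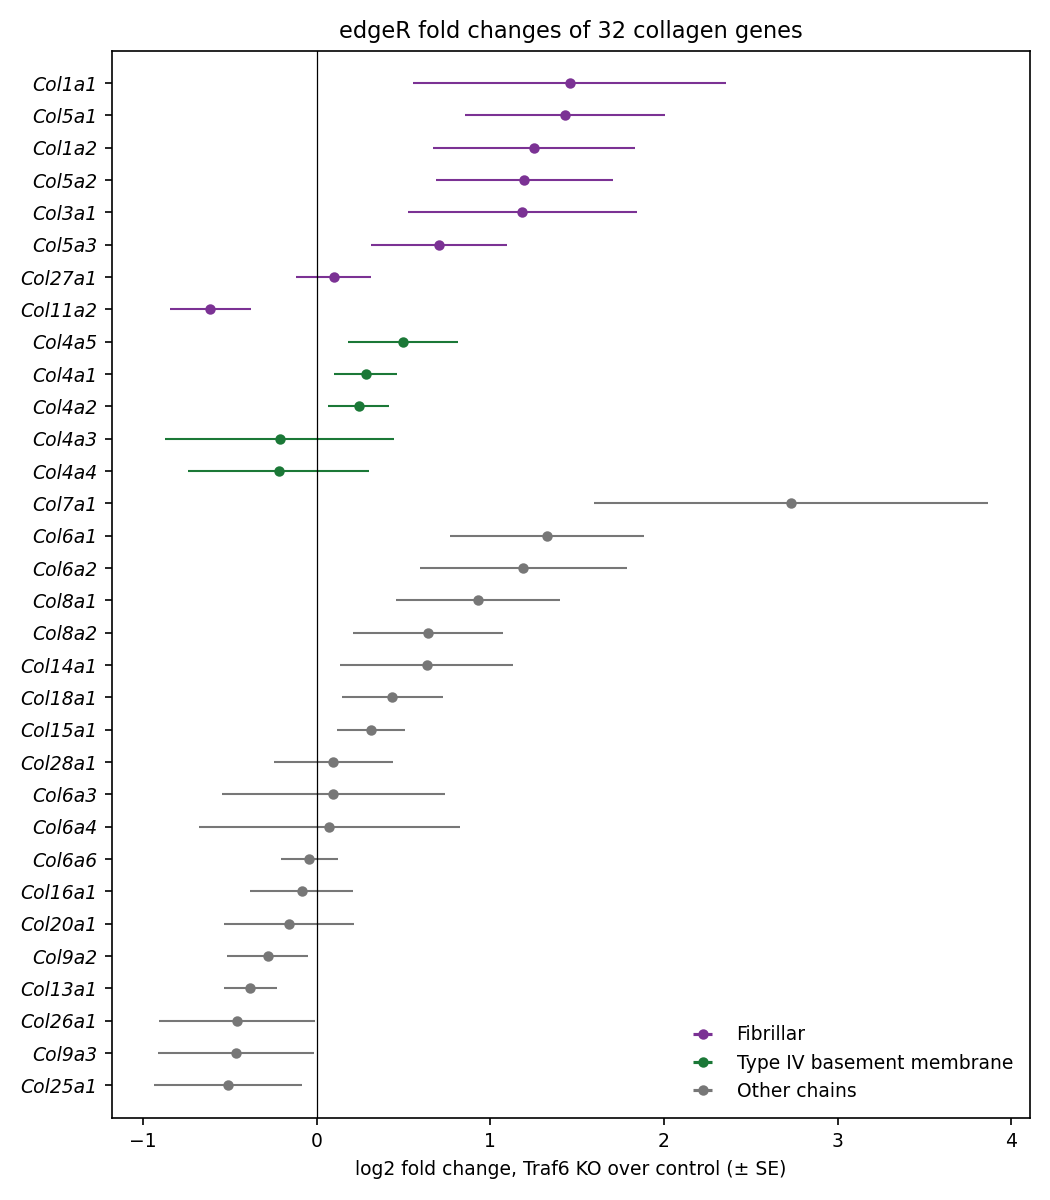
Log2 fold change of each of the 32 collagen genes tested, Traf6 KO over control, on the x axis (points, with bars of ± 1 SE from edgeR), ordered within class and coloured by class. Of 8 fibrillar genes 7 lie to the right of 0 and Col11a2 to the left, Col7a1 lies farthest right at 2.73 with the widest bar, and no gene passed the adjusted threshold.

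Type IV chains outweighed fibrillar chains in 6 of the 7 libraries. Summed over the 44 genes, collagen reached 766, 482 and 601 CPM in Traf6 KO 1 to 3, against 540, 432 and 440 CPM for controls 1 to 3 and 400 CPM for the library labelled control 4. Traf6 KO 1 was the highest of the 7 on this scale, and the groups overlapped. The order differed as a share of library totals without the TMM factor. Collagen genes then took 0.0383% in Traf6 KO 1 and 0.0357% in Traf6 KO 2, below every control (0.0511% to 0.0564%). In Traf6 KO 3 they took 0.0812%, the highest share. Type IV chains made up 25.4%, 34.3% and 40.8% of the collagen CPM in Traf6 KO 1 to 3, against 34.3%, 35.4% and 44.1% for controls 1 to 3 and 35.4% for the library labelled control 4. Fibrillar chains made up 30.2%, 13.9% and 19.3% in Traf6 KO 1 to 3, against 22.3%, 18.9% and 13.3% for controls 1 to 3 and 17.2% for the library labelled control 4. Traf6 KO 1 was thus the only library in which fibrillar chains outweighed type IV chains, at a ratio of 1.19 where the other 6 libraries lay between 0.301 and 0.65. The 27 other chains made up 39.85% to 51.75% in Traf6 KO and 42.61% to 47.39% in control. Their sum was 340.1, 249.6 and 239.4 CPM in Traf6 KO 1 to 3, above every control (187.7 to 234.4 CPM). Col7a1 alone gave 119 and 72.8 CPM of it in Traf6 KO 1 and 2. The sum was not tested. Of the collagen CPM of all 7 libraries together, Col4a1 took 20.1%, Col6a6 15.9%, Col4a2 14%, Col7a1 6.4% and Col3a1 5.79%. Per kilobase of exon, the scale on which genes can be set against each other, the order began with Col4a1 (14.1 CPM per kb), Col4a2 (11.1), Col6a6 (9.09), Col13a1 (4.92), Col15a1 (4.14), Col7a1 (3.26) and Col3a1 (3.08).

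**Figure D2:**
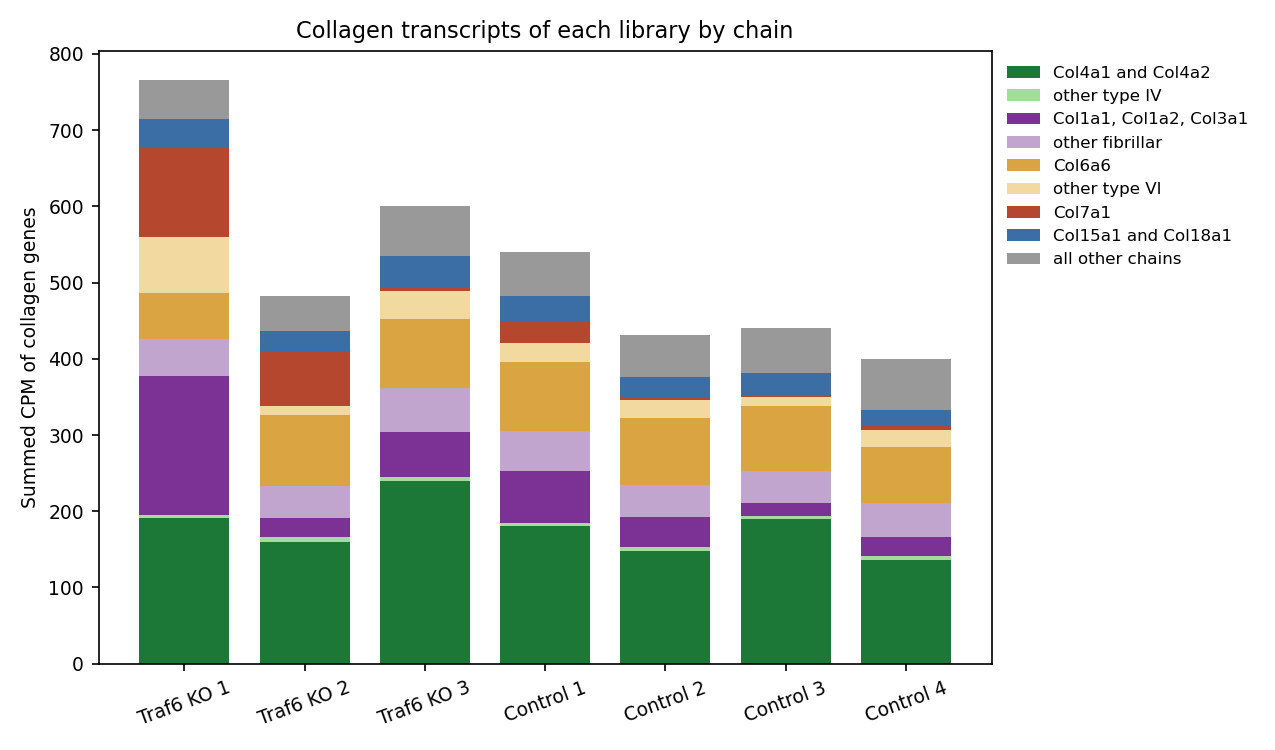
Summed CPM of the 44 collagen genes in each library (x axis, Traf6 KO left of control), with the bars divided by chain group and starting at 0. The Col1a1, Col1a2 and Col3a1 segment stands out in Traf6 KO 1 (183 CPM, against 16.3 to 67.3 CPM in the other libraries), and the Col7a1 segment is broad in Traf6 KO 1 and 2 and thin in Traf6 KO 3.

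Type IV collagen was carried by Col4a1 and Col4a2, the chains of the ubiquitous basement membrane network, and their levels varied little. Col4a1 (ENSMUSG00000031502, chromosome 8, 11198423 to 11312826, on the GRCm38 build as are all gene positions here) was at 114, 96.9 and 140.1 CPM in Traf6 KO 1 to 3, against 107, 89.9 and 113 CPM for controls 1 to 3 and 74.9 CPM for the library labelled control 4. Col4a2 (ENSMUSG00000031503, chromosome 8, 11312805 to 11449287) was at 77.4, 63.3 and 99.98 CPM in Traf6 KO 1 to 3, against 74.1, 58.5 and 77.3 CPM for controls 1 to 3 and 61.8 CPM for the library labelled control 4. Traf6 KO 3 was the highest library for both genes and the groups overlapped. The means of Col4a1 were 117 ± 21.8 CPM in Traf6 KO and 96.1 ± 17.1 CPM in control (SD, n = 3 and 4), and those of Col4a2 were 80.2 ± 18.5 CPM in Traf6 KO and 67.9 ± 9.2 CPM in control. Log2 fold changes were 0.28 ± 0.18 (adjusted p = 0.467 by edgeR) for Col4a1 and 0.24 ± 0.17 (adjusted p = 0.522 by edgeR) for Col4a2, and without Traf6 KO 3 they were 0.13 and 0.049. The ratio of Col4a1 to Col4a2 stayed between 1.40 and 1.53 in Traf6 KO and between 1.21 and 1.54 in control.

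These genes lie head to head, and the annotated transcript starts overlap by 22 bases. The promoter windows, which run from 250 bases before to 50 bases after the RefSeq start on GRCm38.p6, are shown because both members move together across libraries. Capitals mark the 78 bases that both windows share, chr8:11312777-11312854, read from opposite strands.
Col4a1, chr8:11312777-11313076, minus strand: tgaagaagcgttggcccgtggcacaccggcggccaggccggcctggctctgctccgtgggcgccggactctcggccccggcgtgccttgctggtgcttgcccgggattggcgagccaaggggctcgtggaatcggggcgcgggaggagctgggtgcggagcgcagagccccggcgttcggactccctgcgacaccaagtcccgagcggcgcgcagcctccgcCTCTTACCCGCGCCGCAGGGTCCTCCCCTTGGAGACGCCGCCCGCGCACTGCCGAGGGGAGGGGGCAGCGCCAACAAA
Col4a2, chr8:11312555-11312854, plus strand: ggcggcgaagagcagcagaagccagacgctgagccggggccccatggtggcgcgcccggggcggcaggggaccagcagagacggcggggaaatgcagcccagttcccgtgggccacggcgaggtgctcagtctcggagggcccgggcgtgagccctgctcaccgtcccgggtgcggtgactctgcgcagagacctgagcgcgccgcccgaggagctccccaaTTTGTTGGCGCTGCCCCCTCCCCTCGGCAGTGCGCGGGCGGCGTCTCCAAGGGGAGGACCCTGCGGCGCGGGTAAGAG
The shared stretch holds 1 GC box, GGGCGG or its reverse complement CCGCCC. Without a stated strand setting, reads within the overlap of the gene models cannot be assigned to either gene.

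The minor type IV chains were far lower. Col4a3 and Col4a4, which with Col4a5 form the network of the kidney glomerulus, also lie head to head, 71 bases apart on chromosome 1. Col4a3 was at 0.0905, 2.05 and 1.52 CPM in Traf6 KO 1 to 3, against 1.33, 1.7 and 1.4 CPM for controls 1 to 3 and 1.41 CPM for the library labelled control 4. Traf6 KO 1 had 1 count of Col4a3 and 3 counts of Col4a4, whereas the other 6 libraries had between 38 and 61 counts of Col4a3 and between 18 and 51 of Col4a4. Without Traf6 KO 1 the log2 fold change of Col4a3 was 0.29 in place of -0.21 ± 0.66 (adjusted p = 0.900 by edgeR), and that of Col4a4 was 0.17 in place of -0.22 ± 0.52 (adjusted p = 0.866 by edgeR). Col4a5, an X-linked chain, was at 3.17, 2.37 and 2.01 CPM in Traf6 KO 1 to 3, against 2.03, 1.53 and 1.23 CPM for controls 1 to 3 and 2.29 CPM for the library labelled control 4, with a log2 fold change of 0.50 ± 0.32 (adjusted p = 0.467 by edgeR). Its level in Traf6 KO 3, the library with Xist, lay within the range of the others. Col4a6, its head-to-head neighbour on the X chromosome, had 6 counts in all and was not tested.

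Interstitial fibrillar chains of types I and III spread widely across the libraries. Col3a1, the chain of type III collagen, was at 91.4, 13.7 and 28.8 CPM in Traf6 KO 1 to 3, against 35, 20.7 and 9.01 CPM for controls 1 to 3 and 13.3 CPM for the library labelled control 4. Col1a2 was at 49.7, 9.26 and 20.2 CPM in Traf6 KO 1 to 3, against 19.3, 11 and 5.62 CPM for controls 1 to 3 and 8.08 CPM for the library labelled control 4. Col1a1 was at 42.1, 2.85 and 9.91 CPM in Traf6 KO 1 to 3, against 12.9, 7.69 and 1.64 CPM for controls 1 to 3 and 4.02 CPM for the library labelled control 4. Col1a1 and Col1a2 encode the chains of type I collagen, the main fibril former of connective tissue. For each of these 3 genes Traf6 KO 1 was the highest of the 7 libraries, Traf6 KO 2 was below the control mean and control 3 was the lowest. Means were 44.6 ± 41.2 CPM in Traf6 KO and 19.5 ± 11.4 CPM in control for Col3a1, 26.4 ± 20.9 CPM in Traf6 KO and 11 ± 5.95 CPM in control for Col1a2 and 18.3 ± 20.9 CPM in Traf6 KO and 6.57 ± 4.91 CPM in control for Col1a1 (SD, n = 3 and 4).

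The log2 fold changes were 1.18 ± 0.66 (adjusted p = 0.408 by edgeR) for Col3a1, 1.25 ± 0.58 (adjusted p = 0.34 by edgeR) for Col1a2 and 1.46 ± 0.90 (adjusted p = 0.454 by edgeR) for Col1a1. They moved with the libraries used, and without Traf6 KO 1 the values were 0.13, 0.42 and -0.035. Without control 1, the highest control for all 3, they were 1.66, 1.69 and 2.05. With control 1, Traf6 KO 1 and Traf6 KO 2 all left out, they were 0.99, 1.28 and 1.14. That setting was chosen after seeing the data and has Traf6 KO 3 as its only knockout library. The highest library of Col1a1 was at 25.7 times its lowest, and the 4 controls alone spanned 7.88 times. The ratio of Col1a1 to Col1a2 was 0.847, 0.308 and 0.491 in Traf6 KO 1 to 3, against 0.67, 0.697 and 0.292 for controls 1 to 3 and 0.498 for the library labelled control 4, so it was not constant even though both chains join in 1 protein.

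Col5a1 and Col5a2, chains of type V collagen, which sits inside type I fibrils and limits their width, were again highest in Traf6 KO 1. Col5a2 was at 11.5, 2.05 and 4.92 CPM in Traf6 KO 1 to 3, against 3.19, 3.04 and 2.43 CPM for controls 1 to 3 and 1.94 CPM for the library labelled control 4. Col5a1 was at 5.79, 1.13 and 3.95 CPM in Traf6 KO 1 to 3, against 2.03, 1.7 and 0.819 CPM for controls 1 to 3 and 0.777 CPM for the library labelled control 4. For both, Traf6 KO 1 and 3 were above every control and Traf6 KO 2 was below the control mean. The log2 fold changes were 1.20 ± 0.51 (adjusted p = 0.309 by edgeR) for Col5a2 and 1.43 ± 0.58 (adjusted p = 0.29 by edgeR) for Col5a1, at unadjusted p values of 0.0479 and 0.0388. Without Traf6 KO 1 they were 0.40 and 0.94, and without the library labelled control 4 they were 1.08 and 1.25. Col5a3, the third type V chain, had 4.42 ± 2.2 CPM in Traf6 KO and 2.71 ± 0.518 CPM in control, with a log2 fold change of 0.70 ± 0.39 (adjusted p = 0.41 by edgeR).

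Type VI collagen, a beaded filament that links fibrils to cells, divided into chains that varied with the interstitial group and a chain that did not. Col6a1 was at 31.7, 4.58 and 13.1 CPM in Traf6 KO 1 to 3, against 8.65, 7.36 and 4.18 CPM for controls 1 to 3 and 5.83 CPM for the library labelled control 4. Col6a2, its neighbour on chromosome 10, was at 31.4, 4.58 and 12 CPM in Traf6 KO 1 to 3, against 10.4, 8.17 and 3.92 CPM for controls 1 to 3 and 5.22 CPM for the library labelled control 4. Both were highest in Traf6 KO 1 and lowest in control 3, and the ratio of Col6a1 to Col6a2 lay between 1 and 1.09 in Traf6 KO and between 0.832 and 1.11 in control. The log2 fold changes were 1.32 ± 0.56 (adjusted p = 0.303 by edgeR) for Col6a1, at an unadjusted p of 0.0451, and 1.19 ± 0.60 (adjusted p = 0.367 by edgeR) for Col6a2, and without Traf6 KO 1 they were 0.45 and 0.26.

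Col6a6, a chain that can take the place of the alpha-3 chain, was the most abundant type VI gene. It was at 60.8, 94.1 and 90.8 CPM in Traf6 KO 1 to 3, against 90.0, 87.9 and 85.4 CPM for controls 1 to 3 and 74.4 CPM for the library labelled control 4, and its lowest library was Traf6 KO 1, the highest one for Col6a1 and Col6a2. Its log2 fold change was -0.04 ± 0.16 (adjusted p = 0.92 by edgeR). The ratio of Col6a6 to Col6a1 therefore ranged from 1.92 in Traf6 KO 1 to 20.6 in Traf6 KO 2 and was between 10.4 and 20.4 in control. Col6a3, the usual partner of Col6a1 and Col6a2, had 6.89 ± 4.97 CPM in Traf6 KO and 6.46 ± 2.81 CPM in control, with its lowest level, 1.29 CPM, in Traf6 KO 2. Col6a4 stayed at or below 1.38 CPM and Col6a5 at or below 1.09 CPM in every library.

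Over the 7 chains of types I, III, V and VI (Col1a1, Col1a2, Col3a1, Col5a1, Col5a2, Col6a1 and Col6a2), Traf6 KO 1 was at 2.57 to 3.66 times the highest control for each gene. Traf6 KO 2 was at 0.434 to 0.849 times the control mean and Traf6 KO 3 at 1.47 to 2.97 times. The 7 genes were chosen after their values were seen. Promoter windows of Col1a2 and Col3a1, a pair of members that move together, are given from RefSeq on GRCm38.p6 with motif letters in capitals.
Col1a2, chr6:4505368-4505667, plus strand: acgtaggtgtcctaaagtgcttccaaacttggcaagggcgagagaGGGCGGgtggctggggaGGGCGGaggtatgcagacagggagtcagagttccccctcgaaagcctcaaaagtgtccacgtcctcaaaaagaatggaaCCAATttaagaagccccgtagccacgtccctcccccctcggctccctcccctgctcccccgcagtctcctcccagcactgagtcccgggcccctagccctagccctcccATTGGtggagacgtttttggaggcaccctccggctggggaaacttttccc
Col3a1, chr1:45311288-45311587, plus strand: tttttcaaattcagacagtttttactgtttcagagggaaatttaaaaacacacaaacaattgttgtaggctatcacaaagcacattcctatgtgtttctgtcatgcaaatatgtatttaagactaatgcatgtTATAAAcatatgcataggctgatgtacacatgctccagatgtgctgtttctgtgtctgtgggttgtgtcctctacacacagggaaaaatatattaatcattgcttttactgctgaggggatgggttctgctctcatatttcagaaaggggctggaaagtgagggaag
The motifs searched on both strands were the CCAAT box (letters CCAAT), the GC box (letters GGGCGG), the TATA box (letters TATAAA) and the AP-1 site (letters TGANTCA), and no 2 matches overlapped in the windows printed. Col1a2 held CCAAT on the plus strand at -109 and on the minus strand at 1, and GGGCGG at -205 and -188, with positions counted from the RefSeq start. Col3a1 held TATAAA at -117. The RefSeq start of Col1a2 lies inside the gene model whose start GENCODE places at 4504814. Across 38 windows of 35 collagen genes, GGGCGG was found in 60.5%, against 35.7% of 32851 windows of all genes, CCAAT in 34.2% against 37.4%, TATAAA in 13.2% against 13.6% and TGANTCA in 2.63% against 7.81%. A match describes letters only.

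**Figure D3:**
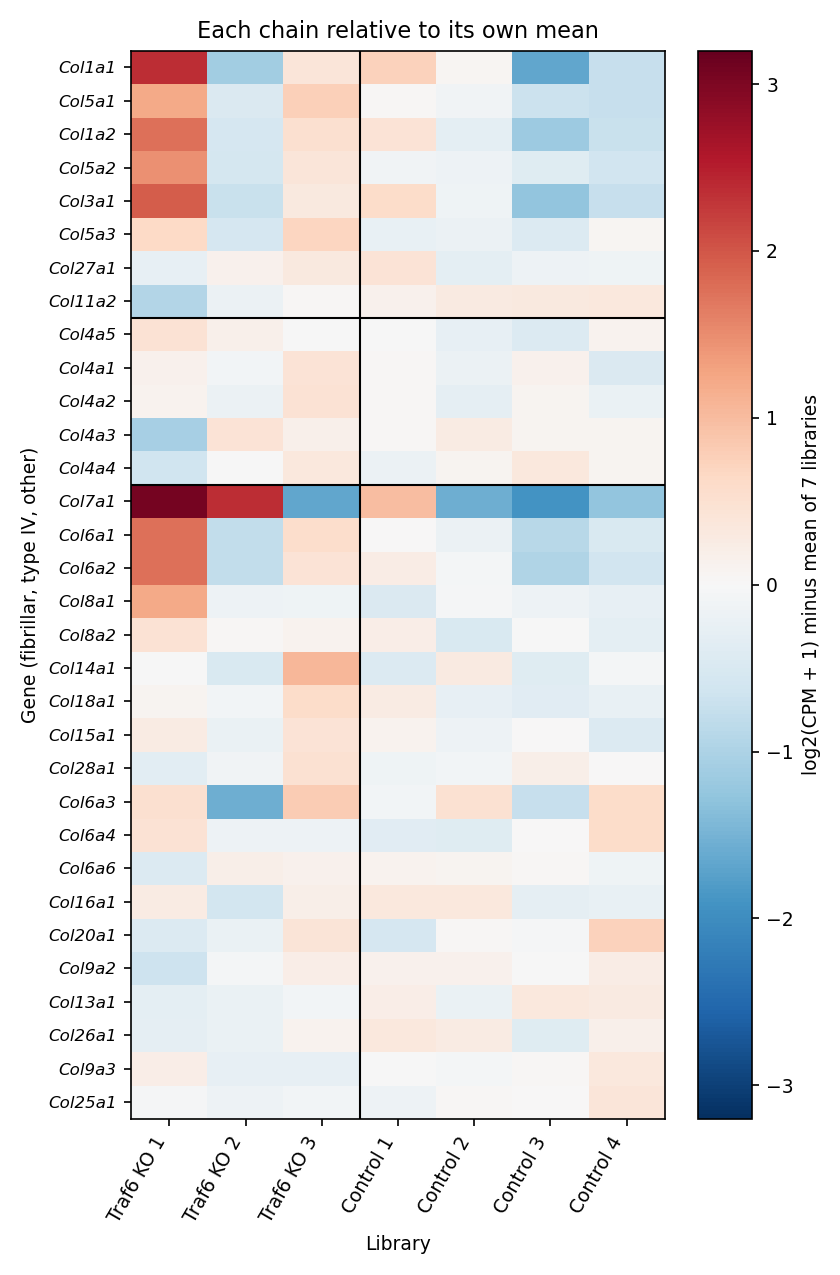
Log2(CPM + 1) of each of the 32 collagen genes tested (y axis, grouped as fibrillar, type IV and other), minus its own mean over the 7 libraries, by library (x axis, Traf6 KO left of the vertical line); the colour scale is shared and no value lies beyond it. Col1a1, Col1a2, Col3a1, Col5a1, Col5a2, Col6a1 and Col6a2 are above their mean in Traf6 KO 1 and below it in Traf6 KO 2, and Col7a1 is above its mean in Traf6 KO 1, Traf6 KO 2 and control 1.

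Stellate and fibroblast transcripts, from a list of 16 genes without any collagen (Dcn, Lum and Postn stand also in the list of fibril-coating genes), were summed for comparison with the interstitial chains. Of 15 list genes tested, 12 had a fold change above 0, and Gli1 was at 0 counts in at least 1 library. The list's most abundant member, Rgs5, a pericyte gene, was at 88.6, 97 and 73.5 CPM in Traf6 KO 1 to 3, against 109, 65 and 95.8 CPM for controls 1 to 3 and 81.7 CPM for the library labelled control 4. Rgs5 alone made up 42.3% to 65.8% of the list's sum in Traf6 KO and 59.8% to 64.9% in control. Without Rgs5 the list summed to 79.3, 50.4 and 100.4 CPM in Traf6 KO 1 to 3, against 63.5, 43.6 and 51.7 CPM for controls 1 to 3 and 53.8 CPM for the library labelled control 4. Traf6 KO 1 and 3 were above every control in this sum, as they were for Col5a1 and Col5a2, and Traf6 KO 2 lay within the control range. Pdgfra, a receptor of fibroblasts, was at 2.17, 0.754 and 2.1 CPM in Traf6 KO 1 to 3, against 0.420, 0.195 and 0.0878 CPM for controls 1 to 3 and 0.141 CPM for the library labelled control 4. Every Traf6 KO library was above every control for Pdgfra, with a log2 fold change of 2.97 ± 0.60 (adjusted p = 0.176 by edgeR), and Cspg4, a pericyte gene, was the list gene with every Traf6 KO library below every control, at -0.66 ± 0.33 (adjusted p = 0.367 by edgeR). Lum and Postn, fibroblast matrix genes, had log2 fold changes of 1.35 ± 0.74 (adjusted p = 0.401 by edgeR) and 1.08 ± 0.63 (adjusted p = 0.429 by edgeR), each highest in Traf6 KO 1. Pdgfra, Cspg4, Lum and Postn were chosen after their values were seen. Across all genes tested, every Traf6 KO library was above every control for 5.58% and below for 8.68%. Notch3 and Pdgfrb, the most abundant list genes after Rgs5, had log2 fold changes of 0.43 ± 0.28 (adjusted p = 0.479 by edgeR) and -0.04 ± 0.17 (adjusted p = 0.939 by edgeR). Those of Acta2, Tagln, Des and Thy1 lay between 0.19 and 0.29. Averaged as log2(CPM + 1), the 16 genes stood at 2.55, 1.97 and 2.77 in Traf6 KO 1 to 3, against 2.29, 1.9 and 1.97 for controls 1 to 3 and 2.1 for the library labelled control 4. With the same kind of average over the 15 list genes tested as a covariate, the fibrillar median was 0.061 in place of 1.19. The endothelial list summed to 405 to 465 CPM in Traf6 KO and 466 to 559 CPM in control, with 2 of 12 genes above 0 in fold change. The ductal list summed to 1372 to 2332 CPM in Traf6 KO and 970 to 1268 CPM in control. Of 12 ductal genes tested, 8 were above 0. The lymphocyte list summed to 33.1 to 449 CPM in Traf6 KO, highest in Traf6 KO 3, and 12.4 to 69.5 CPM in control. The macrophage and myeloid list summed to 145 to 252 CPM in Traf6 KO and 173 to 534 CPM in control. The beta-cell list summed to 89590 to 115900 CPM in Traf6 KO and 155800 to 189900 CPM in control. Of its 10 genes 0 were above 0 in fold change, and for 5 every Traf6 KO library was below every control. The alpha and delta list summed to 21770 to 31340 CPM in Traf6 KO and 21770 to 36310 CPM in control, with 2 of 7 genes above 0. How much of the collagen differences went with these cell types was not tested beyond those values.

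Among the remaining fibrillar chains, Col11a2 was the only collagen gene whose groups did not overlap. Col11a2 (ENSMUSG00000024330, chromosome 17, 34039437 to 34066685), which encodes a chain of type XI collagen, known from cartilage and the inner ear, was at 6.33, 11.2 and 13.4 CPM in Traf6 KO 1 to 3, against 14.3, 16.1 and 16.4 CPM for controls 1 to 3 and 16.7 CPM for the library labelled control 4. Every Traf6 KO library was below every control, and Traf6 KO 1 was the lowest. Such a gap was seen for 1 of the 32 chains tested, against 8.68% of all genes. Its means were 10.3 ± 3.6 CPM in Traf6 KO and 15.9 ± 1.06 CPM in control (SD, n = 3 and 4), with a log2 fold change of -0.61 ± 0.23 (adjusted p = 0.268 by edgeR) and an unadjusted p of 0.0296. The value was -0.36 without Traf6 KO 1 and -0.59 without the library labelled control 4. It was -0.38 with the acinar covariate and kept its sign in all 21 alternative settings, where the smallest adjusted p was 0.0634. Col1a2, Col3a1, Col5a1, Col5a2, Col6a1, Col6a2, Col8a1, Col8a2, Col13a1 and Col18a1 also kept their signs in all 21. Col27a1, a fibrillar chain of cartilage matrix, was at 18.4, 24.7 and 28.2 CPM in Traf6 KO 1 to 3, against 30.6, 17.9 and 20.2 CPM for controls 1 to 3 and 20.5 CPM for the library labelled control 4, with a log2 fold change of 0.10 ± 0.22 (adjusted p = 0.856 by edgeR).

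**Figure D4:**
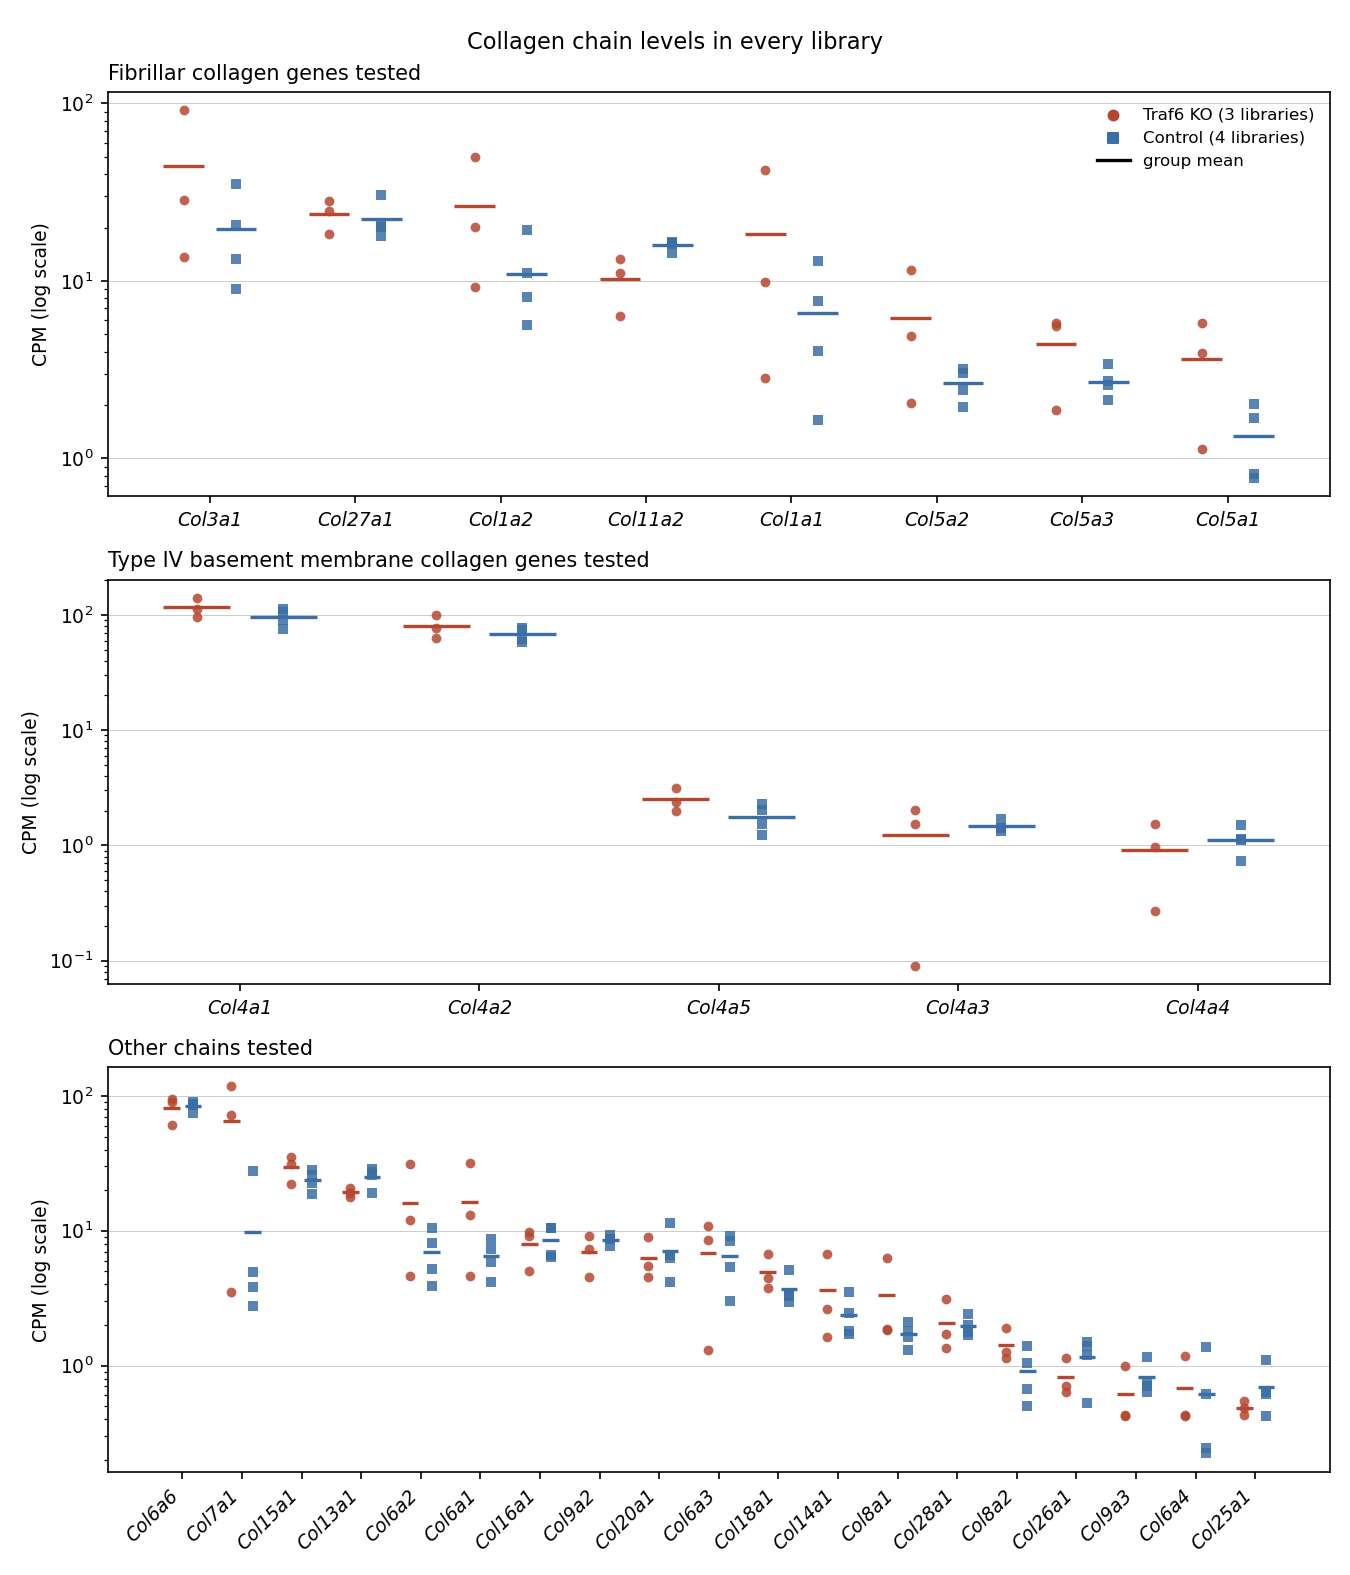
CPM of each tested collagen gene in every library, on a log scale, in panels for fibrillar, type IV and other chains (circles, 3 Traf6 KO libraries, left of squares, 4 control libraries, with bars at the group means). Col11a2 is the only gene with all Traf6 KO points below all control points, and the Traf6 KO points of Col7a1 are spread from 3.5 to 119 CPM.

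Col7a1, the single chain of the anchoring fibrils that fasten the epidermis to the dermis, had the largest fold change of the members and the largest spread. Col7a1 (ENSMUSG00000025650, chromosome 9, 108953586 to 108984875) was at 119, 72.8 and 3.5 CPM in Traf6 KO 1 to 3, against 27.6, 3.82 and 2.78 CPM for controls 1 to 3 and 4.94 CPM for the library labelled control 4. Traf6 KO 1 and 2 and control 1 were the high libraries, and Traf6 KO 3 lay among the remaining controls. The means were 65.1 ± 58.1 CPM in Traf6 KO and 9.78 ± 11.9 CPM in control (SD, n = 3 and 4), with a log2 fold change of 2.73 ± 1.13 (adjusted p = 0.297 by edgeR) and an unadjusted p of 0.0428. The 3 high libraries are those with the highest acinar shares, 44.9% and 35.0% in Traf6 KO 1 and 2 and 16.1% in control 1, whereas the other 4 libraries had 0.379% to 2.68%. The log2 fold change of Col7a1 was -1.08e-06 once the acinar list mean entered the model, and without those 3 libraries, a setting chosen after seeing the data, it was -0.14 with 1 Traf6 KO library left. Without control 1 alone it was 4.12, and among the libraries with Q and R codes 3.08.

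The Col7a1 promoter window follows, with matches to the motifs named above in capitals.
Col7a1, chr9:108953336-108953635, plus strand: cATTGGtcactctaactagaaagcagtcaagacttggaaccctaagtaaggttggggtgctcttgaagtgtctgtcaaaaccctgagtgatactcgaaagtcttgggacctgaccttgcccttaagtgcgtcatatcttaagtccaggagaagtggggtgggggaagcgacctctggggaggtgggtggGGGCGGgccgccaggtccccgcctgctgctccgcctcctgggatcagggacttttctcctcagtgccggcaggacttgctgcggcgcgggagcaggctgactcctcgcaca
It held CCAAT on the minus strand at -249 and GGGCGG at -61, counted from the RefSeq start on GRCm38.p6.

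**Figure D5:**
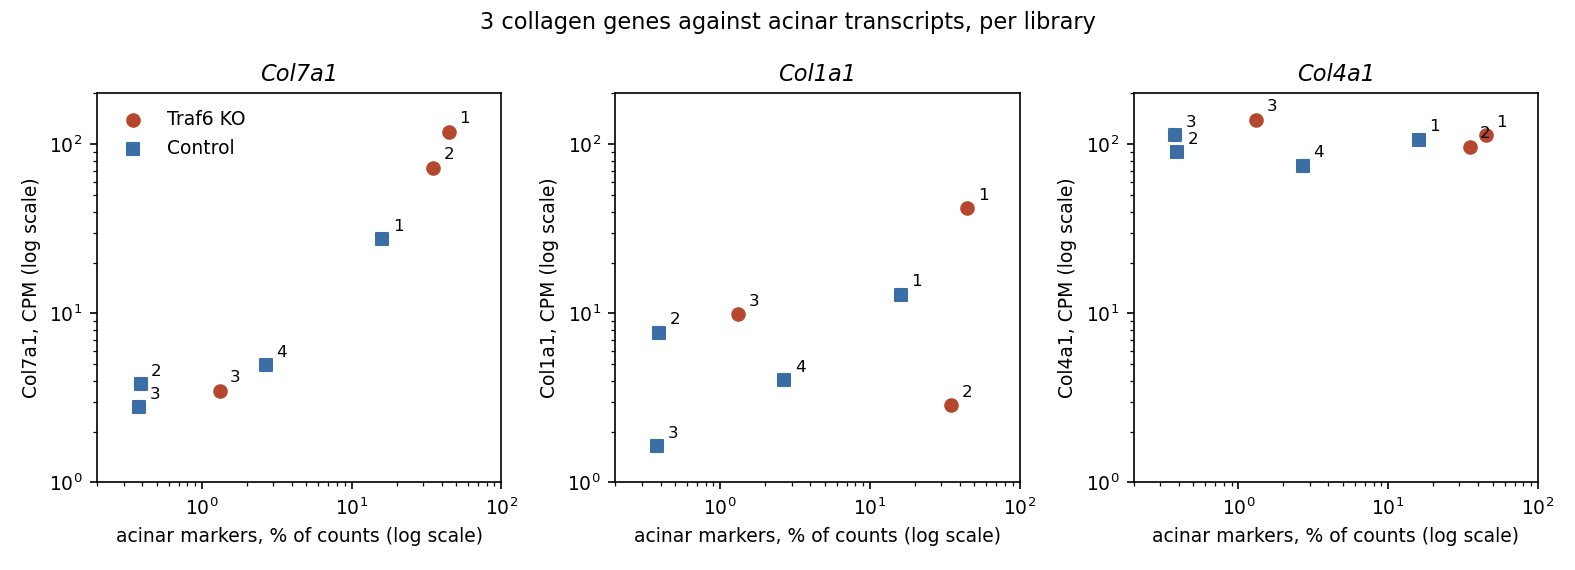
CPM of Col7a1, Col1a1 and Col4a1 (y axes, log scale) against the percent of counts in 19 acinar markers (x axis, log scale) for each library (circles Traf6 KO, squares control, numbers the replicate). Col7a1 was at 27.6 CPM or more in the 3 libraries above 16% and at most 4.94 CPM in the other 4, while Traf6 KO 2, with 35% acinar counts, had 2.85 CPM of Col1a1 and Col4a1 stayed between 74.9 and 140.1 CPM.

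Both multiplexins, basement membrane zone collagens, leaned to the higher side without passing the test. Col15a1 was at 31.3, 22.1 and 35.4 CPM in Traf6 KO 1 to 3, against 28, 22.7 and 25.9 CPM for controls 1 to 3 and 18.6 CPM for the library labelled control 4. Col18a1, the precursor of endostatin, was at 4.43, 3.77 and 6.67 CPM in Traf6 KO 1 to 3, against 5.15, 3.29 and 2.96 CPM for controls 1 to 3 and 3.35 CPM for the library labelled control 4. Traf6 KO 3 was the highest library for each, and the groups overlapped. The log2 fold changes were 0.31 ± 0.19 (adjusted p = 0.456 by edgeR) and 0.43 ± 0.29 (adjusted p = 0.488 by edgeR), and without Traf6 KO 3 they were 0.16 and 0.15.

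Col13a1, a transmembrane collagen of cell adhesion sites and the neuromuscular junction, lay on the lower side. It was at 17.9, 19.1 and 20.9 CPM in Traf6 KO 1 to 3, against 25.8, 19.1 and 28.6 CPM for controls 1 to 3 and 27.2 CPM for the library labelled control 4. All 3 Traf6 KO libraries were below controls 1 and 3 and the library labelled control 4, and control 2 lay between Traf6 KO 2 and 3. The means were 19.3 ± 1.48 CPM in Traf6 KO and 25.2 ± 4.18 CPM in control (SD, n = 3 and 4), with a log2 fold change of -0.38 ± 0.15 (adjusted p = 0.285 by edgeR) and an unadjusted p of 0.0362. Left-out libraries gave -0.31 to -0.49, and the smallest adjusted p over 21 alternatives was 0.177. Col25a1, the other transmembrane chain tested, was at 0.431 to 0.543 CPM in Traf6 KO and 0.42 to 1.09 CPM in control.

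FACIT chains, which attach to the surface of fibrils, were mostly near or below 0 in fold change. Col16a1 was at 9.77, 5.01 and 9.2 CPM in Traf6 KO 1 to 3, against 10.4, 10.4 and 6.38 CPM for controls 1 to 3 and 6.64 CPM for the library labelled control 4, with a log2 fold change of -0.09 ± 0.29 (adjusted p = 0.91 by edgeR). Col9a2, a chain of the cartilage collagen type IX, was at 4.52, 7.32 and 9.13 CPM in Traf6 KO 1 to 3, against 8.62, 8.67 and 7.7 CPM for controls 1 to 3 and 9.36 CPM for the library labelled control 4, with one of -0.28 ± 0.23 (adjusted p = 0.576 by edgeR). Traf6 KO 1 was the lowest library for Col9a2 and Traf6 KO 2 the lowest for Col16a1. Col20a1 was at 4.52, 5.44 and 8.94 CPM in Traf6 KO 1 to 3, against 4.13, 6.58 and 6.29 CPM for controls 1 to 3 and 11.4 CPM for the library labelled control 4, with a log2 fold change of -0.16 ± 0.37 (adjusted p = 0.864 by edgeR), and it shares 79 exonic bases on the same strand with the clone-based gene BX649560.1, so its count is uncertain.

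Col14a1, which binds type I fibrils, was the FACIT chain above 0. It was at 2.62, 1.62 and 6.67 CPM in Traf6 KO 1 to 3, against 1.72, 3.48 and 1.81 CPM for controls 1 to 3 and 2.47 CPM for the library labelled control 4, with a log2 fold change of 0.63 ± 0.50 (adjusted p = 0.559 by edgeR). Traf6 KO 3 alone stood above all controls, and without it the value was -0.18. Col9a3 stayed at or below 1.17 CPM. The short-chain network former Col8a1, known from vessel walls, was at 6.24, 1.83 and 1.88 CPM in Traf6 KO 1 to 3, 1.3, 2.09 and 1.81 CPM for controls 1 to 3 and 1.62 CPM for the library labelled control 4, with a log2 fold change of 0.93 ± 0.47 (adjusted p = 0.375 by edgeR) that was 0.13 without Traf6 KO 1. Col8a2 had 1.43 ± 0.411 CPM in Traf6 KO and 0.907 ± 0.402 CPM in control. Col26a1 and Col28a1 stayed between 0.527 and 3.14 CPM in all libraries. Across the 32 chains tested, the highest library was Traf6 KO 1 for 11, Traf6 KO 2 for 2 and Traf6 KO 3 for 9, against 3, 0 and 1 for controls 1 to 3 and 6 for the library labelled control 4.

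The 12 untested chains were Col2a1, Col4a6, Col6a5, Col9a1, Col10a1, Col11a1, Col12a1, Col17a1, Col19a1, Col22a1, Col23a1 and Col24a1. None exceeded 60 counts in any library, and their sums over the 7 libraries ran from 4 to 114 counts. They were left out of the test by the filter on low counts. Without that filter edgeR called 0 of them, with 0 at an unadjusted p under 0.05, 9 above 0 and 3 below 0, and the smallest adjusted p was 0.536 for Col10a1. The largest count among them, 60, was Col12a1 in Traf6 KO 3 (1.94 CPM), where the other 6 libraries had 3 to 23 counts. Col11a1, a partner of Col11a2, had 31 counts in Traf6 KO 3 and 2 to 14 in the others.

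The genes that hydroxylate, fold and export collagen were near balance, with 11 of 21 tested above 0 and a median log2 fold change of 0.097. Of them 2 had an unadjusted p under 0.05 on the higher side and 0 on the lower, against the shares of all genes given above. Serpinh1, the collagen chaperone HSP47, was at 25.1, 17.7 and 71.9 CPM in Traf6 KO 1 to 3, against 21.9, 20.7 and 23.3 CPM for controls 1 to 3 and 23.9 CPM for the library labelled control 4. Traf6 KO 3 stood far above the rest and Traf6 KO 2 was the lowest, with a log2 fold change of 0.78 ± 0.42 (adjusted p = 0.396 by edgeR). Without Traf6 KO 3 it was -0.077, and without the 3 acinar-rich libraries it was 1.66 (edgeR adjusted p = 0.0108) with that library as the only Traf6 KO, in a setting chosen after seeing the data that assumes the lone library varies like the controls.

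Ppib, a peptidyl-prolyl isomerase of the collagen-folding complex, was at 435, 251 and 71.1 CPM in Traf6 KO 1 to 3, against 159, 99.7 and 100.2 CPM for controls 1 to 3 and 93.4 CPM for the library labelled control 4. Like Col7a1 it was highest in Traf6 KO 1, Traf6 KO 2 and control 1, and its log2 fold change was 1.16 ± 0.51 (adjusted p = 0.319 by edgeR) with all libraries and -0.052 with the acinar covariate. Without Traf6 KO 3, which leaves Traf6 KO 1 and 2, the libraries with the most acinar counts, Ppib passed (edgeR adjusted p = 0.0306). In that setting 4.24% of all genes tested passed. P4hb, a subunit of prolyl 4-hydroxylase that is also a general protein disulfide isomerase, had 1347 ± 562 CPM in Traf6 KO and 956 ± 135 CPM in control, and its level without the 3 acinar-rich libraries had a log2 fold change of -0.18. P4ha1, the catalytic subunit, had a log2 fold change of -0.26 ± 0.12 (adjusted p = 0.327 by edgeR), Plod2, a lysyl hydroxylase, one of 0.55 ± 0.28 (adjusted p = 0.367 by edgeR), Mia2 one of 0.41 ± 0.16 (adjusted p = 0.287 by edgeR) and Sec24d, of the COPII coat that carries procollagen, one of 0.35 ± 0.13 (adjusted p = 0.278 by edgeR). Sec24d was the 1 gene of the 21 with every Traf6 KO library above every control, against 5.58% of all genes. Mia2 passed with limma-voom and quality weights (adjusted p = 0.0458), which called 6.46% of all genes.

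Among the propeptide-processing and crosslinking genes 4 of 7 tested were above 0, and none had an unadjusted p under 0.05. Bmp1, the procollagen C-proteinase, had a log2 fold change of -0.25 ± 0.15 (adjusted p = 0.438 by edgeR), its enhancer Pcolce one of 0.93 ± 0.52 (adjusted p = 0.409 by edgeR), Loxl1, a lysyl oxidase of elastic fibres, one of 1.24 ± 0.71 (adjusted p = 0.422 by edgeR) and Pxdn, which crosslinks type IV collagen, one of 0.17 ± 0.18 (adjusted p = 0.678 by edgeR). Lox itself was at or below 1.81 CPM and was not tested. All 6 degradation and inhibitor genes tested were above 0, with a median of 0.32 and none at an unadjusted p under 0.05. Mmp14, the membrane collagenase, had a log2 fold change of 0.31 ± 0.40 (adjusted p = 0.742 by edgeR), Mmp2, the gelatinase it activates, one of 1.21 ± 1.01 (adjusted p = 0.581 by edgeR), Timp3 one of 0.23 ± 0.17 (adjusted p = 0.545 by edgeR) and Mrc2, a collagen uptake receptor, one of 1.18 ± 0.58 (adjusted p = 0.36 by edgeR). Mmp2 was highest in Traf6 KO 1, at 7.6 CPM, and its value without that library was -0.23. Timp1 was at or below 0.543 CPM.

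Collagen receptors were split, with 4 of 8 tested above 0. Itga1, whose integrin binds type IV collagen, was at 14.8, 12.1 and 8.78 CPM in Traf6 KO 1 to 3, against 7.14, 6.61 and 6.99 CPM for controls 1 to 3 and 9.85 CPM for the library labelled control 4, with a log2 fold change of 0.63 ± 0.22 (adjusted p = 0.249 by edgeR) and an unadjusted p of 0.0214. Traf6 KO 1 and 2 were above every control, and the library labelled control 4 was above Traf6 KO 3. Itga1 passed with limma-voom and quality weights (adjusted p = 0.0444), which called 6.46% of all genes. Its partner Itgb1 had a log2 fold change of 0.20 ± 0.11 (adjusted p = 0.384 by edgeR). Ddr1, the discoidin-domain receptor of epithelia, was at 169, 185 and 186 CPM in Traf6 KO 1 to 3, against 217, 213 and 187 CPM for controls 1 to 3 and 202 CPM for the library labelled control 4. Every Traf6 KO library was below every control, with a log2 fold change of -0.19 ± 0.11 (adjusted p = 0.425 by edgeR). Such a gap was seen for 1 of the 8 receptors tested, against 8.68% of all genes. Ddr2, its counterpart in mesenchymal cells, had a log2 fold change of 0.98 ± 0.49 (adjusted p = 0.369 by edgeR), and Itga10 one of -0.78 ± 0.40 (adjusted p = 0.378 by edgeR).

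Basement membrane partners of type IV collagen held the genes with the smallest adjusted p of any companion list. Lama5, a laminin chain of mature vascular and epithelial basement membranes, was at 23.2, 19.6 and 17.8 CPM in Traf6 KO 1 to 3, against 11.3, 7.66 and 9.07 CPM for controls 1 to 3 and 11.8 CPM for the library labelled control 4. Agrn, the heparan sulfate proteoglycan agrin, was at 24.7, 23.6 and 17 CPM in Traf6 KO 1 to 3, against 14.6, 13.8 and 13.2 CPM for controls 1 to 3 and 13.9 CPM for the library labelled control 4. Lamc1, the gamma chain of most laminins, was at 33.7, 40.3 and 39.6 CPM in Traf6 KO 1 to 3, against 28.4, 30.6 and 31 CPM for controls 1 to 3 and 28.7 CPM for the library labelled control 4. For all 3 genes every Traf6 KO library was above every control. The log2 fold changes were 1.02 ± 0.18 (adjusted p = 0.176 by edgeR) for Lama5, 0.64 ± 0.14 (adjusted p = 0.183 by edgeR) for Agrn and 0.35 ± 0.10 (adjusted p = 0.205 by edgeR) for Lamc1.

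Of 15 partners tested, 10 were above 0 with a median of 0.054, 5 had an unadjusted p under 0.05 on the higher side (against 8.81% of all genes) and 0 on the lower, and 4 were above every control in every Traf6 KO library (against 5.58% of all genes). None passed with edgeR. With the DESeq2 Wald test, which called 4.54% of its genes, the adjusted p was 0.000292 for Lama5, 0.0113 for Agrn and 0.0287 for Lamc1. With limma-voom and sample quality weights, which called 6.46% of genes, it was 0.0306, 0.0306 and 0.0411 for the same 3. Without Traf6 KO 3, where edgeR called 4.24% of genes, it was 0.0303 for Lama5, 0.0171 for Agrn and 0.0385 for Lamb3. In that setting genotype went largely with acinar content. The knockouts left, Traf6 KO 1 and 2, had 44.9% and 35.0% of counts in acinar markers, against 0.379% to 16.1% in control. Lamb3, a chain of epithelial laminin-332, was at 18.9, 9.32 and 0.615 CPM in Traf6 KO 1 to 3, against 2.59, 0.697 and 0.293 CPM for controls 1 to 3 and 0.494 CPM for the library labelled control 4. Its high libraries were those of Col7a1, and its log2 fold change was 3.23 ± 1.07 (adjusted p = 0.235 by edgeR). Log2 fold changes were 0.35 ± 0.21 (adjusted p = 0.44 by edgeR) for Nid1, 0.03 ± 0.37 (adjusted p = 0.973 by edgeR) for Hspg2, 0.05 ± 0.23 (adjusted p = 0.929 by edgeR) for Sparc, -0.02 ± 0.15 (adjusted p = 0.963 by edgeR) for Lama4 and -0.13 ± 0.17 (adjusted p = 0.723 by edgeR) for Lamb1.

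Proteoglycans and glycoproteins that coat fibrils lay on the same side as the fibrillar chains, with 13 of 13 tested above 0 and a median log2 fold change of 1.09. Of them 5 had an unadjusted p under 0.05 on the higher side (against 8.81% of all genes) and 1, Ogn, was above every control in every Traf6 KO library (against 5.58% of all genes). Bgn, biglycan, was at 29.4, 9.15 and 19.9 CPM in Traf6 KO 1 to 3, against 10.4, 10.4 and 6.7 CPM for controls 1 to 3 and 7.09 CPM for the library labelled control 4. Dcn, decorin, was at 15.1, 3.61 and 22.6 CPM in Traf6 KO 1 to 3, against 4.8, 3.29 and 1.38 CPM for controls 1 to 3 and 7.38 CPM for the library labelled control 4. Fn1, fibronectin, was at 6.42, 1.72 and 16.4 CPM in Traf6 KO 1 to 3, against 2.87, 2.37 and 0.556 CPM for controls 1 to 3 and 1.98 CPM for the library labelled control 4. Traf6 KO 2 lay within the control range for each of these 3, and Traf6 KO 3 was the highest for Dcn and Fn1. The log2 fold changes were 1.17 ± 0.36 (adjusted p = 0.223 by edgeR) for Bgn, 1.72 ± 0.66 (adjusted p = 0.276 by edgeR) for Dcn, 2.09 ± 0.74 (adjusted p = 0.253 by edgeR) for Fn1 and 2.48 ± 0.91 (adjusted p = 0.262 by edgeR) for Ogn, whose levels stayed at or below 1.1 CPM. Bgn passed with the DESeq2 Wald test (adjusted p = 0.0381) and Ogn with limma-voom and quality weights (adjusted p = 0.0462). These settings called 4.54% and 6.46% of all their genes.

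Many collagen transcripts share a site for the miR-29 family, microRNAs known to repress extracellular matrix genes, which the choice of members did not use. Mature sequences from RefSeq on GRCm38.p6 are shown with the seed (bases 2 to 8) in capitals, and all 3 share it.
mmu-miR-29a-3p: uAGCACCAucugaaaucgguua
mmu-miR-29b-3p: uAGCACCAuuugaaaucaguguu
mmu-miR-29c-3p: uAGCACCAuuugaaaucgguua
The reverse complement of the seed, TGGTGCT, was looked for on the transcript strand of annotated 3′ UTRs (GENCODE on GRCm38). The transcript with the longest coding sequence of each gene was searched, and in it Col11a2 and Col18a1 had no 3′ UTR. The match was found in 18 of 30 collagen genes tested (60%), against 1887 of 13747 tested genes of any kind (13.7%). With untested chains counted, it was found in 24 of 42 collagen genes with a 3′ UTR (57.1%). By class it was found in 9 of 10 fibrillar genes, 6 of 6 type IV genes and 9 of 26 others. Sites per kb of 3′ UTR were 0.936 in collagen genes tested, 0.775 in all 42 collagen genes and 0.113 in all tested genes. Median 3′ UTR lengths were 879.5, 965 and 977 bases in the same order.

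Sites of members with high levels or large fold changes are printed 5′ to 3′ on the transcript strand with the match in capitals.
Col1a1, chr11:94952538-94952544, plus strand: gaatttcTGGTGCTatagaag
Col3a1, chr1:45348982-45348988, plus strand: gtctcaaTGGTGCTataataa
Col4a1, chr8:11199762-11199768, minus strand: cacaacaTGGTGCTactcccc
Col4a2, chr8:11448359-11448365, plus strand: gccacgtTGGTGCTtatcctt
Col7a1, chr9:108984595-108984601, plus strand: ctccattTGGTGCTagagttg
Col6a2, chr10:76596171-76596177, minus strand: ccatctgTGGTGCTaatagga
The coordinates are those of the 7 matched bases. Col4a2 and Col7a1 held 2 such matches each, of which the first after the stop codon is printed. Col5a1 held 4 such matches, Col5a3 3 and Col4a3 4. No match was found in the 3′ UTRs searched of Col1a2, Col6a1, Col6a6 or Col13a1, which says only that these letters are not there. Other transcripts of these genes were not searched. Levels of the microRNAs were not measured in these libraries.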

How the data were processed

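RNA of isolated mouse islets, in 3 libraries labelled Traf6 KO and 4 labelled control, was sequenced as 151-base read pairs on a NovaSeq, per the labels' protocols, whose extraction step cites a kit for tissue DNA. The table the authors deposited holds raw counts for each gene, with 1 column per library and 100% of values whole. The submitters' processing notes list FastQC, STAR 2.6.1b and RSEM 1.3.1 and the GRCm38 build without saying what each did. If RSEM made the counts, reads that fit several similar chains were divided by its model and rounded. No source used here gives the annotation or the strand setting.

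All 44 collagen identifiers matched GENCODE release M21 on GRCm38, which gave positions, exon lengths and 3′ UTRs; promoters and microRNAs came from RefSeq on GRCm38.p6. Every pair of libraries differed beyond sampling noise (lowest chi-square per gene 21.82 over 21 pairs). The counts of all genes were tested together by edgeR 4.0.16 under R 4.3.3 (TMM, quasi-likelihood F test, genotype as the only term, filterByExpr with a minimum count of 10 and minimum total of 15), with Benjamini-Hochberg adjustment and a threshold of 0.05, after a check on simulated data. The SE is the log2 fold change over the root of F. CPM is the count per 1000000 of library total times TMM factor. List levels are the mean log2(CPM + 1).

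Alternatives were other scalings, DESeq2 1.42.0, limma-voom 3.58.1 without and with quality weights, other filters, the replicate number, an acinar or a stellate list mean or the letter of the title code as a term, libraries with Q and R codes only, and each library left out. The setting without the 3 acinar-rich libraries was chosen after seeing the data.

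The collagen genes, their classes and the companion and marker lists were chosen with earlier results of these data known. Named genes are the 6 fibrillar, 4 type IV, 2 multiplexin, 3 type VI and 6 other chains with the highest mean CPM, any chain with an unadjusted p under 0.05 or groups that do not overlap, Traf6, up to 4 members of each companion list with the smallest p, and 17 companions named whatever their values. Chains have values per library, and most companions a fold change alone. Chains outside this rule are given by ranges or means. Figures were drawn with matplotlib 3.10.9.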

Additional observations from a re-analysis of the deposited data

Results flagged for a closer look

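Of 73 quantities examined in the 4 control libraries, 7 had 1 library set apart from the other 3 by more than Dixon's 95% critical value for the gap over the range, and chance sets apart about 1 in 20 groups. Of these 7 values 4 came from control 1, the control with the most acinar counts. Col7a1 was at 27.56 CPM there, against 2.78 to 4.942 CPM in the other controls. Ppib, of the collagen-folding complex, was at 159.4 CPM against 93.37 to 100.2 CPM. Mmp2, a gelatinase, was at 3.852 CPM against 0.2926 to 0.8825 CPM. Ogn, a small leucine-rich proteoglycan, was at 0.5253 CPM against 0.02787 to 0.05852 CPM. Itga1, the collagen-binding integrin chain, was at 9.849 CPM in the library labelled control 4, against 6.605 to 7.144 CPM in controls 1 to 3. Sparc, which binds type IV collagen, was at 53.73 CPM in control 2, below the 70.04 to 72.26 CPM of the others. Type IV chains made up 44.12% of the collagen CPM in control 3, against 34.3% to 35.39% in the others.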

How the results depend on the processing

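No collagen chain was called in any of the 21 alternatives, 20 planned and 1 added. For all genes the counts called higher and lower were 466 and 238 with the DESeq2 Wald test, 669 and 377 with quality weights, and 61 and 6 without the 3 acinar-rich libraries. Leaving out 1 library gave 0 to 568 higher and 0 to 133 lower, the highest counts without Traf6 KO 3. The acinar covariate gave 3 higher. The replicate numbers did not pair the libraries (same-number correlations of 0.597, -0.177 and 0.454, with the first alone matching best to its own number), and with the replicate block edgeR called 6 genes higher. Library totals without a factor moved the median of all genes to -0.4569, and relative to it the class medians were 0.99 for fibrillar, 0.32 for type IV and 0.21 for other chains. The fibrillar median (1.19) was 0.535 with library totals, 0.1431 with quality weights and 0.0607 with the stellate covariate, and 0.3272 to 1.6383 with 1 library left out. It was 0.6605 with the acinar covariate and 1.0265 without the 3 acinar-rich libraries. The type IV median (0.24) was -0.1351 with library totals, 0.001 with quality weights and 0.0067 in libraries with Q and R codes, and 0.0488 to 0.3936 with 1 library left out. The median of other chains (0.096) was -0.2502, -0.1203 and -0.1633 in those settings, -0.1406 with the stellate covariate and -0.1799 to 0.3373 with 1 library left out. The cause was not tested.

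Of 462 recomputed log2 fold changes of 22 collagen chains named, 425 kept their sign and 37 turned it, in 13 chains; of 692 of companions, 55 turned it and 15 passed the threshold. The turned values follow by setting. With the acinar covariate they were Col4a3 0.048, Col20a1 0.19, Col6a6 0.037, Col7a1 -1.08e-06, Lama4 0.055, Lamb1 0.070, Mmp14 -0.0072, Ppib -0.052, Sparc -0.10. With the stellate covariate they were Col4a3 0.10, Col27a1 -0.043, Col4a2 -0.024, Col6a6 0.024, Col1a1 -0.065, Col14a1 -0.14, Hspg2 -0.41, Loxl1 -0.42, Mmp14 -0.28, Mmp2 -0.17, Pxdn -0.058, Serpinh1 -0.11, Sparc -0.25. Without the 3 acinar-rich libraries they were Col4a3 0.0057, Col20a1 0.14, Col9a2 0.084, Col16a1 0.22, Col6a6 0.13, Col7a1 -0.14, Lama4 0.0028, Lamb1 0.11, P4hb -0.18, Ppib -0.47, Sparc -0.055. With the replicate block they were Col20a1 0.13, Lama4 0.016. With library totals they were Col4a5 -0.059, Col15a1 -0.084, Col27a1 -0.25, Col4a1 -0.11, Col4a2 -0.14, Hspg2 -0.19, Itgb1 -0.30, Lamc1 -0.093, Mia2 -0.16, Mmp14 -0.23, Nid1 -0.026, P4hb -0.17, Pxdn -0.21, Sec24d -0.13, Sparc -0.49, Timp3 -0.21. In libraries with Q and R codes they were Col27a1 -0.079, Col14a1 -0.16, Hspg2 -0.49, Pxdn -0.038, Serpinh1 -0.045. With quality weights they were Col6a6 0.034, Col14a1 -0.15, Hspg2 -0.34, Loxl1 -0.24, Pxdn -0.024, Serpinh1 -0.021, Sparc -0.25. With upper-quartile factors Hspg2 was at -0.00037. With limma-voom they were Hspg2 -0.016, Lama4 0.0034, Sparc -0.014. With the code letter as a term Hspg2 was at -0.20. With DESeq2 size factors Lama4 was at 0.0037. With the DESeq2 Wald test Lama4 was at 0.0046. With 1 library left out, the values of genes that turned sign ranged as follows: Col4a3 -0.74 to 0.29, Col20a1 -0.51 to 0.17, Col27a1 -0.042 to 0.31, Col16a1 -0.25 to 0.17, Col6a6 -0.15 to 0.14, Col1a1 -0.035 to 2.05, Col14a1 -0.18 to 0.99, Hspg2 -0.63 to 0.30, Lama4 -0.081 to 0.069, Mmp14 -0.10 to 0.61, Mmp2 -0.23 to 2.48, Pxdn -0.055 to 0.31, Serpinh1 -0.077 to 1.12, Sparc -0.25 to 0.28. Low counts kept 12 of 44 chains out of the main test, and none was called without that filter.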
